A study of Mus musculus with 16 samples.

Results

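The receptors of interferons and of IL-10, and the suppressors of cytokine signaling (SOCS) that act on them, were read as a group of 10 genes. Ifnar1, Ifnar2, Ifngr1, Ifngr2, Il10ra and Il10rb encode receptor chains, and Socs1, Socs2, Socs3 and Cish encode SOCS proteins. The genes were chosen by their symbols, with earlier results of these data known, and are 10 of the 23356 genes in the deposited table. RNA-seq had been carried out on bone marrow-derived dendritic cells (BMDCs), which were grown for 6 days with GM-CSF and IL-4 from the marrow of mice aged 6 to 12 weeks. BMDCs of 4 genotypes, C57BL/6 wild-type, Tmem173-/-, Irf1-/- and Irf3/7-/-, were left untreated (NT) or stimulated for 18 h with cyclic di-guanylate monophosphate (c-di-GMP, CDG), at 25 µg/ml according to the labels. The labels list 16 samples, 2 in each of 8 conditions, and the deposited table holds a single pooled FPKM per condition (fragments per kilobase, scaled to the mapped total) with the authors' interval. FPKM is corrected for length, so that levels can be set side by side between genes as well as between conditions.

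Tmem173 encodes STING, the sensor that binds c-di-GMP, and Irf1, Irf3 and Irf7 encode interferon regulatory factors. The comparisons ask which of the receptor and SOCS genes respond to c-di-GMP, and how that response compares in BMDCs from mice with a knockout of the sensor or of these factors. The labels name no deletion restricted to a cell type, and the study's methods describe no cell sort between the culture and the RNA extraction. Genotypes are those of the labels throughout. Tmem173 was at 103 and 118 FPKM in untreated and treated wild-type BMDCs, and at 8.97 and 7.49 FPKM in Tmem173-/- BMDCs. Irf1 was at 25.9 and 116 FPKM in untreated and treated Irf1-/- BMDCs, against 149 and 245 FPKM in the wild type, so that its transcripts were reduced but present and rose with treatment. In Irf3/7-/- BMDCs, Irf7 was at 1.07 and 4.97 FPKM, against 15.2 and 687 FPKM in the wild type. Irf3 was at 7.74 FPKM in untreated Irf3/7-/- BMDCs but at 20.2 FPKM in the treated ones, against 19.9 and 15.8 FPKM in the wild type, so Irf3 goes against the label of the treated Irf3/7-/- condition and Irf7 does not. The column read here as treated Tmem173-/- BMDCs carries another abbreviation than CDG in the table.

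Of 9 dendritic cell markers, 8 were at or above 1 FPKM in all conditions, led by Cd74 at 3336 to 4983 FPKM. Flt3 was at 1.17 to 2.75 FPKM, and Cd209a was under 1 FPKM in 5 of the 8 conditions. By the rule given below, H2-Aa, H2-Ab1 and Ciita were lower in Irf1-/- than in wild-type BMDCs, untreated and treated. The shares of all genes called lower were 3.52% and 4.91%. H2-Aa was at 364 and 462 FPKM, against 1031 and 1424 FPKM. Cd209a was higher in untreated Irf1-/- BMDCs. Other cell types were also represented. The sum of 7 neutrophil genes was 19288 and 13928 FPKM in untreated and treated Tmem173-/- BMDCs, and ran from 1371 to 3926 FPKM elsewhere. S100a8 and S100a9 made up most of these sums, at 2531 and 1350 FPKM in untreated wild-type BMDCs. In all 8 conditions the FPKM of S100a8 lay above the authors' interval, which was 1204 to 2169 FPKM in untreated wild-type BMDCs. The sum of 11 T and NK cell genes was 1.29 and 1.20 FPKM in Tmem173-/- and 12.1 and 14.1 FPKM in Irf1-/- BMDCs, against 425 and 380 FPKM in the wild type and 423 and 1076 FPKM in Irf3/7-/- BMDCs. The 6 macrophage genes summed to 453 and 432 FPKM in untreated and treated Tmem173-/- BMDCs, and to between 157 and 274 FPKM elsewhere. The 8 mast cell and basophil genes summed to 176 and 279 FPKM in Irf3/7-/- BMDCs, and to between 63.3 and 164 FPKM elsewhere. The sum of the 6 B cell genes lay between 3.41 and 10.7 FPKM and was highest in untreated Tmem173-/- BMDCs. In bulk RNA, fewer cells of a type and less RNA per cell cannot be told apart.

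Receptors for interferons and IL-10 belong to the class II cytokine receptor family and signal as pairs of unlike chains, each of which carries a Janus kinase (JAK). The kinases phosphorylate STAT transcription factors, which bind interferon-stimulated response elements (ISREs) or gamma-activated sequences (GAS) near their target genes. SOCS genes are among these targets, and their proteins block kinases and receptors, which closes a feedback loop. Socs1 is best known as a brake on interferon receptors, Socs3 on receptors that signal through STAT3, and Cish and Socs2 on those that signal through STAT5, such as the GM-CSF receptor.

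Promoter windows in RefSeq (GRCm38.p6) were matched for 7 of the 10 genes, all but Il10ra, Il10rb and Socs2. The 4 shown are those of the SOCS genes with a motif match and of Ifnar2, a receptor gene that changed with treatment. Each run starts 220 bases before the start site and ends 25 bases after the first transcribed base, reads 5′ to 3′ along the gene's strand, and has its motif matches in capitals. The runs lie at chr16:10785511-10785756 (minus strand) for Socs1, chr11:117969341-117969586 (minus strand) for Socs3, chr9:107296439-107296684 (plus strand) for Cish and chr16:91372563-91372808 (plus strand) for Ifnar2.
Socs1: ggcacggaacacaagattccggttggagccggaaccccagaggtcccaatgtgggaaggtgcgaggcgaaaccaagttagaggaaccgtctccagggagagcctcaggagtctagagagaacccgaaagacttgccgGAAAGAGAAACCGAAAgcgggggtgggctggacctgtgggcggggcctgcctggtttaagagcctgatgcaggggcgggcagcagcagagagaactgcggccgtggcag
Socs3: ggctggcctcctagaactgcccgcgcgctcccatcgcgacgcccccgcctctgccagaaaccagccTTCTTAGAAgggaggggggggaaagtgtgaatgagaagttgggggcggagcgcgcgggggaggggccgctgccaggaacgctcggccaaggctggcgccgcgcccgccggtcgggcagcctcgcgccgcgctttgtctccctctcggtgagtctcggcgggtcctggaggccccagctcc
Cish: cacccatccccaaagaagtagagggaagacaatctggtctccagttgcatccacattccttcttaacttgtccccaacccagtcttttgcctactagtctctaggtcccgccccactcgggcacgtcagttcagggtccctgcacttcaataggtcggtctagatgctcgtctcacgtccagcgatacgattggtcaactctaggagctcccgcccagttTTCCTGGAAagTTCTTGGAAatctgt
Ifnar2: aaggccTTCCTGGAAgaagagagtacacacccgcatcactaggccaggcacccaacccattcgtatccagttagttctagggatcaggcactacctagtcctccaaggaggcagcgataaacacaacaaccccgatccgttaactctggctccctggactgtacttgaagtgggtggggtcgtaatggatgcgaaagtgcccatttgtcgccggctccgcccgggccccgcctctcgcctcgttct

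The capitals mark GAS letters (TTCNNNGAA, the same on both strands) or ISRE letters (GAAANNGAAA, or TTTCNNTTTC on the other strand). Socs1 held a pair of overlapping ISRE matches, GAAAGAGAAA at -83 to -74 and GAAACCGAAA at -77 to -68, counted from 0 at the first transcribed base. An ISRE match was found in 3.44% of the 32851 RefSeq windows, each of 300 bases and searched whole, and 2 or more in 0.225%. Cish held 2 GAS matches, TTCCTGGAA at 0 to 8 and TTCTTGGAA at 11 to 19. A GAS match was found in 8.30% of all windows, and 2 or more in 0.457%. Socs3 held the GAS match TTCTTAGAA at -154 to -146 and Ifnar2 held TTCCTGGAA at -214 to -206. Ifnar1 held TTCACGGAA at -5 to 3. Ifngr2 held no match to these letters but 1 to the wider form TTCNNNNGAA, TTCCCGGGAA at -91 to -82, which 6.95% of windows hold, and Ifngr1 held none of the 3. A match describes the letters in the window and does not show that a factor binds there.

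The SOCS genes had the higher summed level in each condition, by a wide margin outside Tmem173-/- BMDCs. In untreated wild-type BMDCs the levels of the 4 SOCS genes summed to 541 FPKM and those of the 6 receptor genes to 197 FPKM, and after c-di-GMP to 944 and 371 FPKM. In Tmem173-/- BMDCs the sums were close, at 285 and 252 FPKM untreated and 269 and 244 FPKM treated. Single genes did not follow the sums throughout, and Socs3, at 29.2 FPKM in untreated wild-type BMDCs, lay below Ifngr2, Ifngr1 and Il10ra. Socs1, at 209 FPKM, had the highest level of the 10 in untreated wild-type BMDCs and Ifnar1, at 14.0 FPKM, the lowest. Socs1 also led in treated wild-type BMDCs, whereas Cish led in both Tmem173-/- conditions and in treated Irf1-/- and Irf3/7-/- BMDCs. All 10 genes had the status OK and more than 10 FPKM in all conditions, so each was compared in all 11 comparisons.

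**Figure D1:**
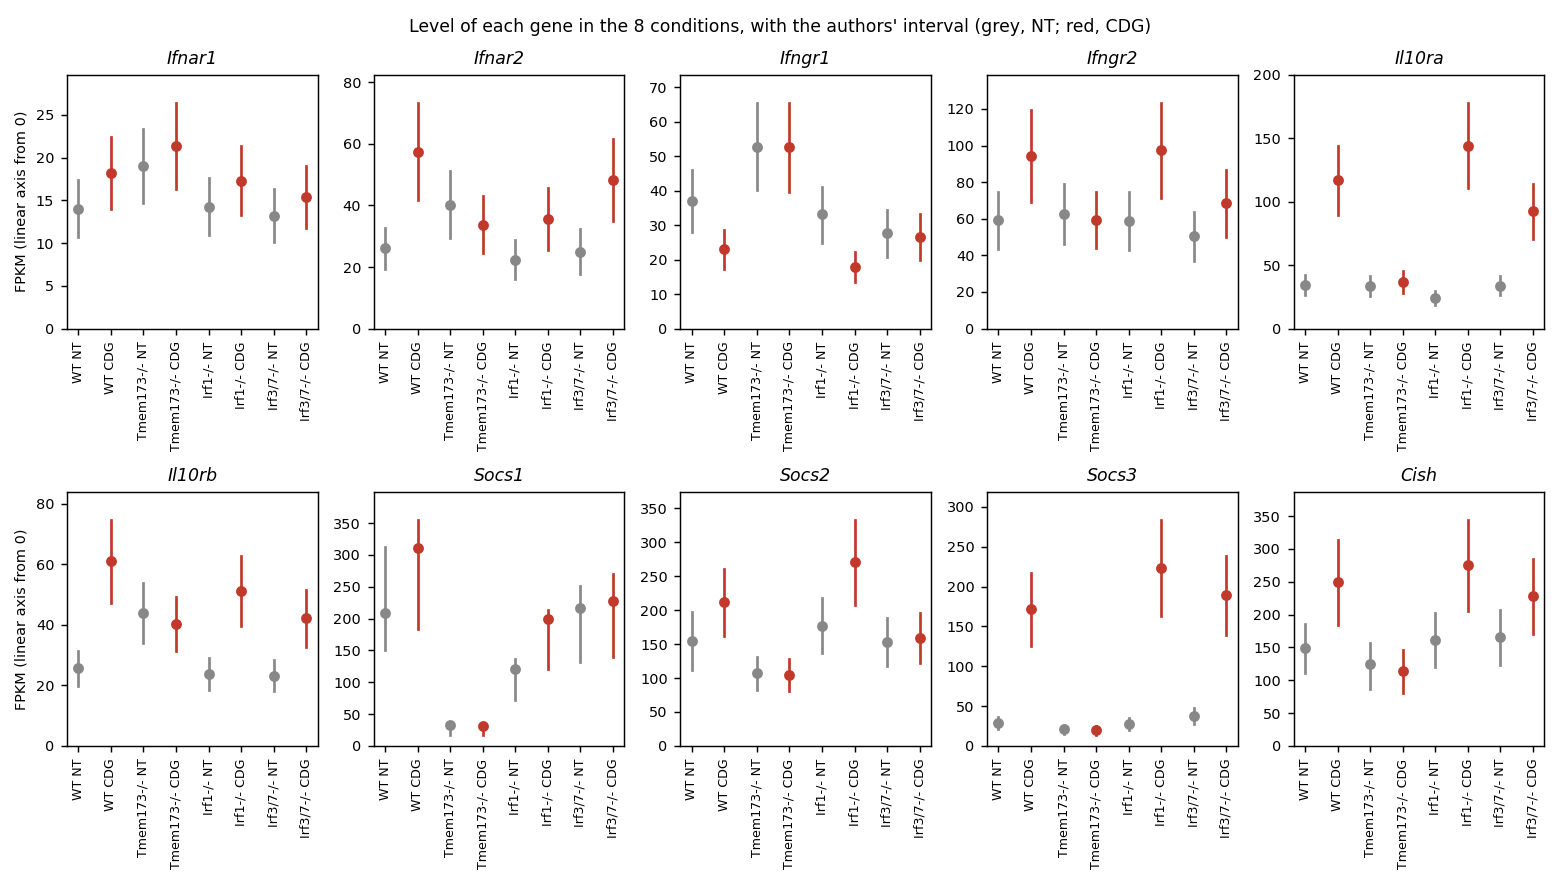
FPKM of each of the 10 genes in the 8 conditions (dots; grey, NT; red, CDG) with the authors' interval (lines), on linear axes from 0 that differ between panels. Il10ra and Socs3 stand high in the 3 treated conditions with Tmem173 and low elsewhere, Socs1 is at 32.6 and 30.6 FPKM in Tmem173-/- BMDCs and at least 121 FPKM elsewhere, and Ifnar1 spans 1.62-fold.

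A gene was called higher or lower where log2(FPKM + 0.1) differed by more than 2-fold and the authors' intervals did not overlap. In wild-type BMDCs, 4 of the 10 genes rose with c-di-GMP, against 10.5% of all 11201 genes compared that were called higher and 20.5% called in either direction. The 4 were Socs3, Il10ra, Il10rb and Ifnar2, and none of the 10 was called lower, against 9.96% of all genes. The median log2 change of the 10 was 0.71, beside 0.00 for all genes compared. In Tmem173-/- BMDCs, 0 of the 10 changed with c-di-GMP, their median log2 change was -0.08, and 0.0552% of 10867 genes were called. In Irf1-/- BMDCs, 3 of the 10 rose, Socs3, Il10ra and Il10rb, against 9.67% of genes called higher and 17.5% in either direction. In Irf3/7-/- BMDCs, 2 of the 10 rose, Socs3 and Il10ra, against 10.2% called higher and 17.9% in either direction. Markers of dendritic cells and of other cells also moved with treatment. Of the dendritic cell markers, 8 were compared in wild-type BMDCs, and Itgam was lower, at 164 FPKM untreated and 77.9 FPKM treated. In wild-type BMDCs the 7 neutrophil genes summed to 3926 FPKM untreated and 1803 FPKM treated, with 2 of 7 lower (S100a8 and S100a9), and the 6 macrophage genes to 172 and 274 FPKM, with Mertk and Fcgr1 higher. The 8 mast cell and basophil genes summed to 74.5 and 164 FPKM, with Hdc higher and Kit lower, and of the T and NK cell genes Klrb1c and Eomes were lower. Their part in the responses of the 10 genes was not tested.

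**Figure D2:**
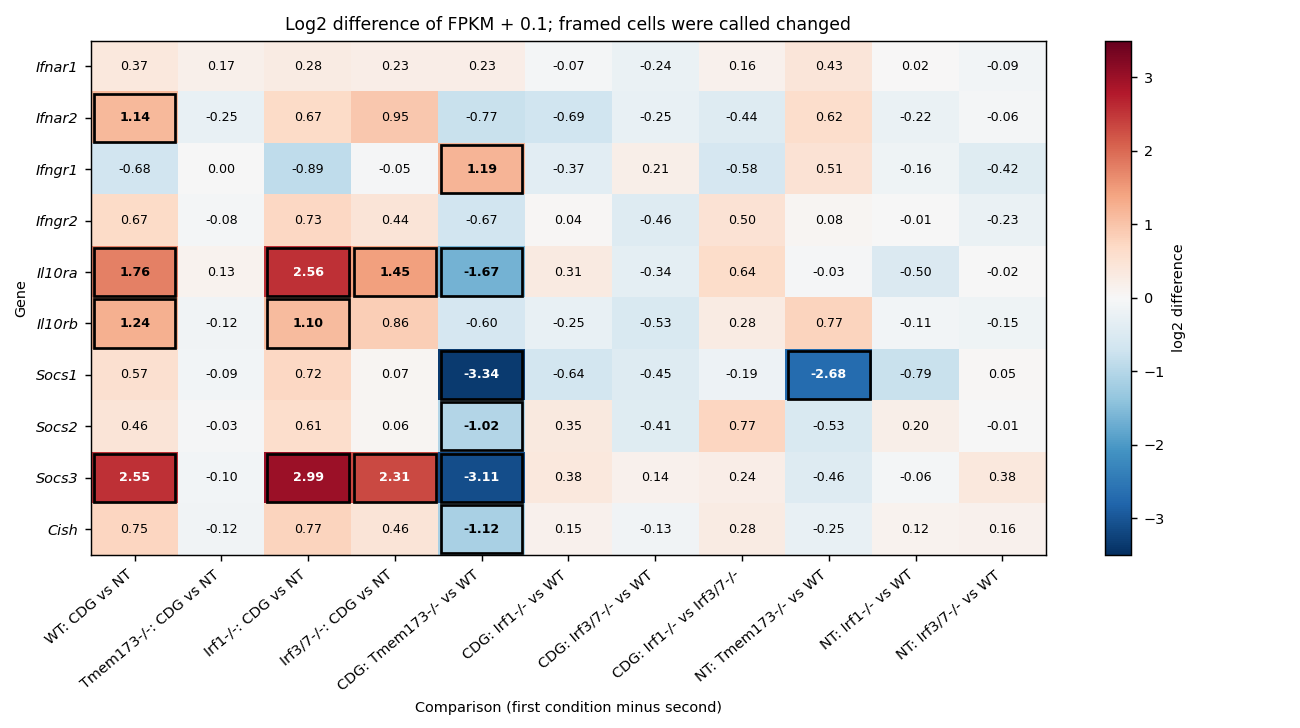
Log2 difference of FPKM + 0.1 (color and number, red for higher) for the 10 genes (rows) in the 11 comparisons (columns, first condition minus second), with the 16 called values framed. The framed values lie in the responses of wild-type, Irf1-/- and Irf3/7-/- BMDCs and in both comparisons of Tmem173-/- with wild-type BMDCs, and none lies in the comparisons of Irf1-/- or Irf3/7-/- with wild-type BMDCs.

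Type I interferon signals through the chains Ifnar1 and Ifnar2. Ifnar1, which carries the kinase TYK2, was at 14.0 FPKM (authors' interval, 10.7 to 17.4) in untreated and 18.2 FPKM (14.0 to 22.4) in treated wild-type BMDCs, at 19.0 and 21.4 FPKM in Tmem173-/-, at 14.3 and 17.3 FPKM in Irf1-/- and at 13.2 and 15.4 FPKM in Irf3/7-/- BMDCs. No neighbours in the order of its 8 levels had separate intervals, and its log2 change with treatment lay between 0.17 and 0.37 in the 4 genotypes. Ifnar2, the chain that binds interferon most tightly and carries JAK1, was at 26.1 FPKM (19.5 to 32.6) in untreated and 57.5 FPKM (41.7 to 73.3) in treated wild-type BMDCs, a log2 change of 1.14. It was at 40.2 and 33.7 FPKM in Tmem173-/-, at 22.4 and 35.7 FPKM in Irf1-/- and at 25.0 and 48.3 FPKM in Irf3/7-/- BMDCs. Ifnar2 thus rose in the wild type. Its intervals before and after treatment were also separate in Irf3/7-/- BMDCs, where the log2 change of 0.95 lay under the threshold, and overlapped in Irf1-/- BMDCs, where it was 0.67. The level of Ifnar2 was 1.86 times that of Ifnar1 in untreated and 3.16 times in treated wild-type BMDCs.

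IFN-γ is bound by Ifngr1, and Ifngr2 completes the receptor and brings in JAK2. Ifngr1 was at 37.1 FPKM (28.0 to 46.1) in untreated and 23.0 FPKM (17.4 to 28.7) in treated wild-type BMDCs, at 52.8 and 52.7 FPKM in Tmem173-/-, at 33.1 and 17.8 FPKM in Irf1-/- and at 27.6 and 26.6 FPKM in Irf3/7-/- BMDCs. It was the only member of the 10 with a negative log2 change in treated wild-type (-0.68) and Irf1-/- BMDCs (-0.89). Neither was called, although the intervals in Irf1-/- BMDCs, 24.9 to 41.2 and 13.4 to 22.1 FPKM, were separate. In Irf3/7-/- BMDCs the log2 change of Ifngr1 was -0.05, and the intervals of its treated level and that of the treated wild type overlapped. Ifngr2 was at 59.4 and 94.5 FPKM in wild-type, at 62.7 and 59.5 FPKM in Tmem173-/-, at 58.8 and 97.4 FPKM in Irf1-/- and at 50.5 and 68.6 FPKM in Irf3/7-/- BMDCs, and its untreated and treated intervals overlapped in each genotype. In wild-type and Irf1-/- BMDCs, the balance of the chains moved more than either chain. The level of Ifngr2 was 1.60 times that of Ifngr1 in untreated and 4.10 times in treated wild-type BMDCs, 1.77 and 5.47 times in Irf1-/-, 1.83 and 2.58 times in Irf3/7-/-, and 1.19 and 1.13 times in Tmem173-/- BMDCs.

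Il10ra encodes the chain that gives the IL-10 receptor its specificity, and it rose in 3 of the 4 genotypes. It was at 34.4 FPKM (26.4 to 42.4) in untreated and 117 FPKM (89.5 to 144) in treated wild-type BMDCs, a log2 change of 1.76. It was at 24.4 FPKM (18.8 to 29.9) and 144 FPKM (111 to 178) in the condition labelled Irf1-/-, a log2 change of 2.56, and at 33.8 FPKM (26.1 to 41.5) and 92.4 FPKM (70.9 to 114) in Irf3/7-/- BMDCs, a log2 change of 1.45. In Tmem173-/- BMDCs it was at 33.6 FPKM (25.8 to 41.4) and 36.7 FPKM (28.2 to 45.2). The 3 treated levels with Tmem173 thus stood above the other 5 levels, with separate intervals between them and overlapping intervals among the 3. The log2 response in Irf1-/- exceeded that in wild-type BMDCs by 0.80, a difference for which there is no test with pooled values.

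Il10rb, the chain that IL-10 shares with IL-22 and the type III interferons, was at 25.7 FPKM (19.9 to 31.4) and 60.9 FPKM (47.2 to 74.6) in untreated and treated wild-type BMDCs. It was at 23.8 and 51.2 FPKM in Irf1-/-, at 23.2 and 42.1 FPKM in Irf3/7-/- and at 43.8 and 40.3 FPKM in Tmem173-/- BMDCs. It rose in the wild type (log2 change 1.24) and in Irf1-/- BMDCs (1.10), and its change of 0.86 in Irf3/7-/- BMDCs lay under the threshold with separate intervals. Unlike Il10ra, it was higher without treatment in Tmem173-/- than in wild-type BMDCs by 0.77 on the log2 scale, with separate intervals but under the threshold. The level of Il10ra was 0.767 times that of Il10rb in untreated Tmem173-/- BMDCs and 1.34 times in untreated wild-type BMDCs, and reached 1.92 times in treated wild-type and 2.82 times in treated Irf1-/- BMDCs.

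Ifnar2, Il10rb, Ifnar1 and Ifngr2 lie in this order, all on the plus strand, within 191.225 kb of chromosome 16. In the coordinates of the table, which match GRCm38, Ifnar2 lies at chr16:91372783-91405587, Il10rb at chr16:91406235-91425834, Ifnar1 at chr16:91485215-91510522 and Ifngr2 at chr16:91547094-91564007. Ifnar2 and Il10rb, which lie 647 bases apart, were the pair of the 4 that rose in wild-type BMDCs, with log2 changes of 1.14 and 1.24, whereas those of Ifnar1 and Ifngr2 were 0.37 and 0.67. The next expressed genes along the chromosome did not share the rise. Tmem50b was at 28.4 and 37.7 FPKM in untreated and treated wild-type BMDCs (log2 change 0.40), and Gart, which encodes a purine synthesis enzyme, fell from 37.2 to 9.83 FPKM (log2 change -1.91). None of the 10 genes overlaps another gene of the table.

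**Figure D3:**
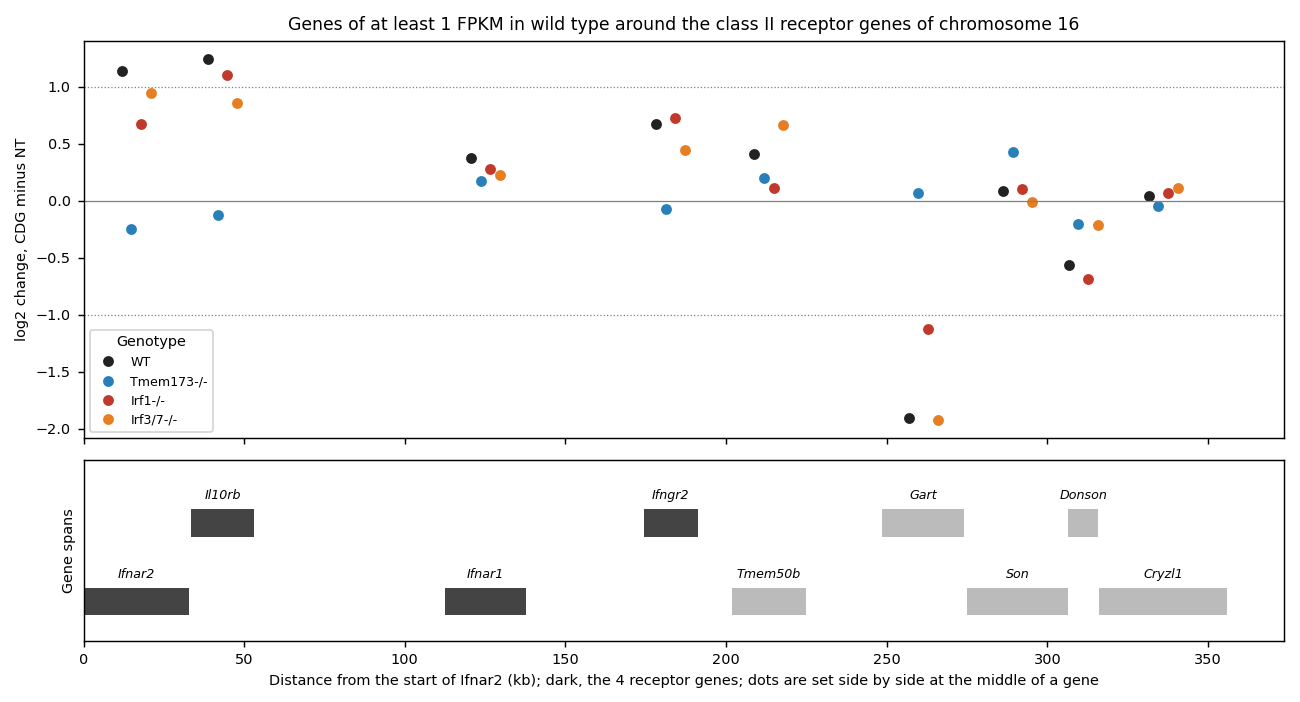
Log2 change with c-di-GMP in each genotype (upper panel, dots by genotype; dotted lines, the 2-fold threshold) for genes with at least 1 FPKM in wild-type BMDCs, placed by distance from the start of Ifnar2 in kb over their spans (lower panel; dark, the 4 receptor genes). The dots of Ifnar2 and Il10rb are above those of Ifnar1 in all genotypes but Tmem173-/-, and Gart is lowest, at -1.91 in wild-type BMDCs.

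Among the SOCS genes, Socs3 responded most to c-di-GMP, and its log2 change was the largest of the 10 in wild-type, Irf1-/- and Irf3/7-/- BMDCs. Socs3 (chr11:117966087-117969366) was at 29.2 FPKM (21.7 to 36.8) in untreated and 172 FPKM (125 to 217) in treated wild-type BMDCs, a log2 change of 2.55. It was at 28.0 FPKM (20.3 to 35.4) and 223 FPKM (163 to 283) in the condition labelled Irf1-/-, a log2 change of 2.99, and at 38.1 FPKM (28.1 to 47.8) and 189 FPKM (139 to 239) in Irf3/7-/- BMDCs, a log2 change of 2.31. In Tmem173-/- BMDCs it was at 21.3 FPKM (14.8 to 26.3) and 19.9 FPKM (14.1 to 25.1). The 3 treated levels with Tmem173 had overlapping intervals and stood apart from all untreated levels, and from both Tmem173-/- levels.

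Socs1 (chr16:10783809-10785536) varied with genotype more than with treatment. It was at 209 FPKM (150 to 313) in untreated and 311 FPKM (184 to 355) in treated wild-type BMDCs, at 217 FPKM (131 to 252) and 227 FPKM (140 to 271) in Irf3/7-/-, at 121 FPKM (72.1 to 136) and 200.0 FPKM (120 to 214) in Irf1-/-, and at 32.6 FPKM (17.4 to 35.8) and 30.6 FPKM (16.8 to 32.4) in Tmem173-/- BMDCs. It was not called changed with treatment in any genotype, with log2 changes of 0.57, 0.07, 0.72 and -0.09 in this order. Both Tmem173-/- levels stood below all others with separate intervals, and the level in untreated Irf1-/- BMDCs lay below that of the untreated wild type with separate intervals. The authors' FPKM of Socs1 is not central in its interval, and relative to the FPKM its intervals reached the widest of the 10 genes. The FPKM lies nearer the lower bound in untreated wild-type BMDCs and nearer the upper bound in all other conditions. The separation of untreated Irf1-/- from untreated wild-type BMDCs, 136 against 150 FPKM at the bounds, comes with this difference in skew.

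Cish and Socs2 were abundant in all conditions and had smaller responses than Socs3. Cish was at 148 FPKM (111 to 185) and 249 FPKM (184 to 313) in untreated and treated wild-type BMDCs, at 124 and 114 FPKM in Tmem173-/-, at 161 and 276 FPKM in Irf1-/- and at 166 and 228 FPKM in Irf3/7-/- BMDCs. Socs2 was at 154 FPKM (112 to 197) and 212 FPKM (162 to 261) in wild-type, at 107 and 104 FPKM in Tmem173-/-, at 177 and 270 FPKM in Irf1-/- and at 153 and 159 FPKM in Irf3/7-/- BMDCs. Neither was called changed with treatment in any genotype. The log2 changes were 0.75 for Cish and 0.46 for Socs2 in wild-type and 0.77 and 0.61 in Irf1-/- BMDCs, and the intervals of Cish in Irf1-/- BMDCs were separate. In Irf3/7-/- BMDCs the log2 change was 0.46 for Cish and 0.06 for Socs2.

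The makeup of the SOCS group changed with treatment. The level of Socs1 was 7.16 times that of Socs3 in untreated and 1.81 times in treated wild-type BMDCs, 5.69 and 1.20 times in Irf3/7-/-, 4.33 and 0.896 times in Irf1-/-, and 1.53 and 1.54 times in Tmem173-/- BMDCs. The intervals of Socs1 and Socs3 were separate in the 3 untreated conditions with Tmem173 and overlapped in the other 5 conditions. Cish and Socs2 stayed within 0.911 to 1.43 times each other, with overlapping intervals in all 8 conditions.

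Between treated Tmem173-/- and treated wild-type BMDCs, 6 of the 10 genes differed, against 26.3% of 11318 genes. This comparison shares the treated wild-type condition with the treatment response described above. Lower in Tmem173-/- BMDCs were all 4 SOCS genes and Il10ra, 5 of the 10 against 13.5% of genes, and higher was Ifngr1 alone, against 12.9%. The log2 differences were -3.34 for Socs1, -3.11 for Socs3, -1.67 for Il10ra, -1.12 for Cish, -1.02 for Socs2 and 1.19 for Ifngr1. The SOCS genes summed to 269 FPKM in treated Tmem173-/- and 944 FPKM in treated wild-type BMDCs, and the receptor genes to 244 and 371 FPKM. As the sums given above show, T and NK cell genes were at lower summed levels in these Tmem173-/- BMDCs. Neutrophil and macrophage genes were at higher summed levels, although Mertk was lower. The part of these cell types in the differences was not tested.

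Without treatment, 1 of the 10 genes differed between Tmem173-/- and wild-type BMDCs, against 11.0% of 11101 genes in either direction and 5.95% called lower. This was Socs1, at 32.6 against 209 FPKM, a log2 difference of -2.68. The receptor genes had a median log2 difference of 0.47 and the SOCS genes one of -0.49, beside 0.01 for all genes compared. Socs1 was thus low in Tmem173-/- BMDCs without any treatment, whereas the intervals of Socs3 (21.3 against 29.2 FPKM) and of Il10ra (33.6 against 34.4 FPKM) overlapped those of the wild type.

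None of the 10 genes was called between Irf1-/- or Irf3/7-/- and wild-type BMDCs, treated or untreated. After c-di-GMP, 7.56% of genes were called between Irf1-/- and wild-type BMDCs, and the values of the 10 ran from a log2 difference of -0.69 for Ifnar2 to 0.38 for Socs3. Between treated Irf3/7-/- and wild-type BMDCs, 7.30% of genes were called, and the values ran from -0.53 for Il10rb to 0.21 for Ifngr1. Between treated Irf1-/- and treated Irf3/7-/- BMDCs, 9.84% of genes were called and 0 of the 10, although the intervals of Socs2, at 270 and 159 FPKM, were separate (log2 difference 0.77). Without treatment, 4.78% of genes were called between Irf1-/- and wild-type BMDCs, where Socs1 had separate intervals and a log2 difference of -0.79. The share was 2.04% between untreated Irf3/7-/- and wild-type BMDCs, where the intervals of all 10 genes overlapped.

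The ligands of these receptors were read beside them. Of 21 genes of interferons, IL-10 and IL-22 in the table, 3 reached 1 FPKM in wild-type BMDCs, Ifng, Ifnb1 and Ifna4. Ifng was called higher with c-di-GMP. Ifnb1 and Ifna4 were called higher too, but they reached 1 FPKM only with treatment. They could therefore not have been called lower. Ifna4 was listed at 0 in untreated and at 3.53 FPKM in treated wild-type BMDCs. Ifng, the gene of IFN-γ, was at 34.6 and 299 FPKM in untreated and treated wild-type BMDCs, at 1.26 and 25.5 FPKM in Irf1-/- and at 44.0 and 1155 FPKM in Irf3/7-/- BMDCs, and was listed at 0 in both Tmem173-/- conditions. Ifnb1, the gene of IFN-β, was listed at 0 in untreated and at 2.93 FPKM in treated wild-type BMDCs, at 0.0258 and 3.53 FPKM in Irf1-/-, at 0 and 22.6 FPKM in Irf3/7-/- and at 0 and 0.0474 FPKM in Tmem173-/- BMDCs. Il10 stayed at or under 1.14 FPKM in all conditions, although it was called higher with treatment in Irf3/7-/- BMDCs. It reached 1 FPKM only there, from 0.0182 FPKM untreated, so it could not have been called lower. The level of its receptor gene Il10ra reached 144 FPKM.

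Socs1, Ifng and the sum of the T and NK cell genes were each lowest in Tmem173-/- and next lowest in Irf1-/- BMDCs without treatment. Socs1 was at 217, 209, 121 and 32.6 FPKM in untreated Irf3/7-/-, wild-type, Irf1-/- and Tmem173-/- BMDCs, Ifng was at 44.0, 34.6, 1.26 and 0 FPKM, and the sum of the 11 T and NK cell genes was 423, 425, 12.1 and 1.29 FPKM. Of the T and NK cell genes, Gzma was the highest in wild-type BMDCs at 349 FPKM, and all 11 were under 1 FPKM in Tmem173-/- BMDCs. Their part in the level of Socs1 was not tested. Ifng and the sum of the T and NK cell genes were highest in treated Irf3/7-/- BMDCs, at 1155 and 1076 FPKM. Gzma made up 900 FPKM of that sum, and the list did not move together. With treatment in Irf3/7-/- BMDCs, 2 of the 9 compared were called higher (Gzma and Prf1), against 10.2% of genes. Lower were 2 (Klrb1c and Eomes), against 7.68%. Socs1, at 227 FPKM in treated Irf3/7-/- BMDCs, was not above the treated wild type, at 311 FPKM.

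**Figure D4:**
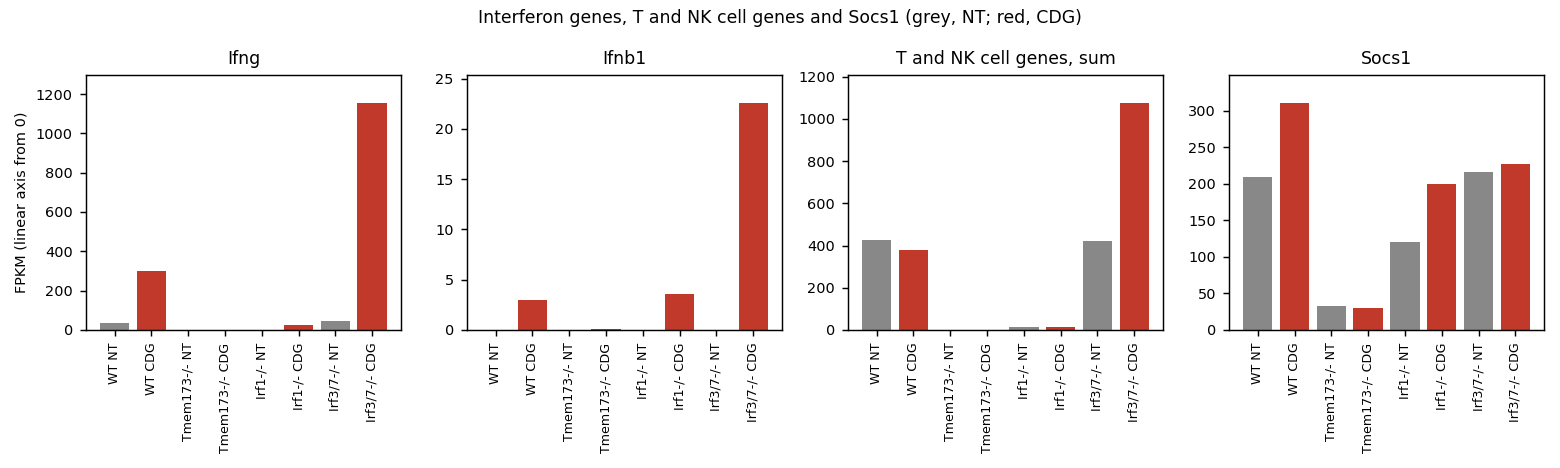
FPKM of Ifng, of Ifnb1, of 11 T and NK cell genes summed, and of Socs1 in the 8 conditions (bars; grey, NT; red, CDG), on linear axes from 0 that differ between panels. Ifng and the sum of the T and NK cell genes are highest in treated Irf3/7-/- BMDCs, at 1155 and 1076 FPKM. Socs1 is highest in treated wild-type BMDCs, at 311 FPKM.

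Downstream of the receptors, c-di-GMP raised 4 of the 12 genes of JAKs, STATs and their partner Irf9 in wild-type BMDCs, namely Stat2, Stat4, Stat5a and Stat5b, against 10.5% of all genes called higher. None of the 12 changed in Tmem173-/- BMDCs, where 0.0552% of genes were called. In Irf1-/- BMDCs 6 rose, against 9.67% of genes, and in Irf3/7-/- BMDCs 4 rose, against 10.2%. After treatment, 9 of the 12 were lower in Tmem173-/- than in wild-type BMDCs, against 13.5% of genes. All 16 interferon target genes of a list that includes Isg15 and Ifit1 rose in wild-type and Irf1-/- BMDCs. Of these genes 15 rose in Irf3/7-/- BMDCs, whereas 0 of the 11 that could be compared in Tmem173-/- BMDCs did. A rise did not mean a level equal to the wild type. Irf1-/- BMDCs had 11 of the 16 called lower than the wild type without treatment and 5 after it, against 3.52% and 4.91% of all genes. For Irf3/7-/- BMDCs these counts were 7 and 4, against 0.863% and 2.69%. The Tmem173 knockout had 14 lower without treatment and 16 after it, against 5.95% and 13.5%. In these comparisons with the wild type, 0 of the 16 were called higher, against 1.17% to 12.9% of all genes.

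The remaining SOCS family genes, Socs4 to Socs7, did not share the rise of Socs3. Socs6 fell from 25.3 to 8.72 FPKM in wild-type BMDCs (log2 change -1.53), and also fell in Irf1-/- (-1.03) and Irf3/7-/- BMDCs (-1.66). Socs4, Socs5 and Socs7 were at 3.01 to 13.8 FPKM and were not called with treatment. Of the partners through which the SOCS box recruits a ubiquitin ligase, Cul5, Rnf7, Tceb1 and Tceb2, 0 of 4 were called in any comparison. Of 11 other inhibitors of JAK-STAT signaling, 2 rose in wild-type BMDCs, against 10.5% of all genes called higher. Usp18, which binds Ifnar2 and restrains the type I interferon receptor, rose from 42.3 to 404 FPKM (log2 change 3.25), and Pias2 rose from 9.02 to 18.4 FPKM. Usp18 also rose in Irf1-/- BMDCs, from 24.9 to 484 FPKM, and in Irf3/7-/- BMDCs, from 23.6 to 236 FPKM, and was at 6.04 and 5.73 FPKM in Tmem173-/- BMDCs. It was thus lower than in the wild type in both Tmem173-/- conditions, like Socs1.

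Among other receptors and cytokine targets, the changes were mixed, and the counts in wild-type BMDCs stand beside 10.5% of all genes called higher and 9.96% called lower. Of 6 further class II receptor genes in the table, 3 were compared in wild-type BMDCs. Il20rb rose from 3.41 to 8.96 FPKM and F3, the tissue factor gene, fell from 9.20 to 4.34 FPKM. Of 16 receptor genes for GM-CSF, IL-4, IL-6 and related cytokines, 13 were compared in wild-type BMDCs, of which 5 rose and 1 fell. Csf2rb2, a beta chain of the IL-3 receptor, rose in wild-type, Irf1-/- and Irf3/7-/- BMDCs, with log2 changes of 1.14, 1.44 and 1.41. Of 9 genes known to respond to IL-10 or STAT3, 8 were compared and 4 rose in wild-type BMDCs, among them Il1rn, the IL-1 receptor antagonist gene, from 114 to 952 FPKM. Of 12 targets of IL-4 and GM-CSF in the table, 8 were compared in wild-type BMDCs, of which 1 rose and 2 fell.

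The profile of each gene over the 8 conditions was set against those of 9268 genes, as the root mean square difference of log2 levels centered on their means. The nearest gene was Selm for Socs1 (0.22), Srgn for Socs3 (0.26), Mdfic for Il10ra (0.17), Vasp for Ifngr1 (0.12), Hsph1 for Socs2 (0.09), Acp2 for Il10rb (0.09), Cyp4v3 for Ifnar2 (0.09) and Irgq for Cish (0.09). Among the 10 genes, the closest pairs were Cish with Socs2 (0.19) and Ifnar2 with its neighbour Il10rb (0.21). Ifnar2 ranked 40 among the genes nearest to Il10rb. Socs1 and Socs3, the genes with the widest spans of level, 10.2-fold and 11.2-fold, differed from each other by 1.04.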

How the data were processed

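RNA was measured in 16 samples, 2 per condition, as stranded mRNA libraries read by 35-bp paired ends. With Cuffdiff, the authors merged both replicates and deposited 1 FPKM per gene and condition with a confidence interval and a status. The submitters' processing notes name Cuffdiff 1.06 and mm9, whereas the paper's methods name another Cuffdiff version, and the listed loci overlap the gene of the same name in GRCm38 (GENCODE M21) for 21454 of 21681 genes. The paper's methods give a strand-specific setting for SeqMonk, and the sources used here give none for the Cuffdiff run. The labels and the paper's legends give different doses. The Tmem173-/- column whose name has GDP was read as treated, since the study's supplementary log ratios of treated Tmem173-/- to wild-type BMDCs fit it and not the other column. 3 value columns of a further knockout were not used.

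A gene was compared where it had at least 1 FPKM in a compared condition and status OK in both, and called where log2(FPKM + 0.1) differed by more than 2-fold and the intervals did not overlap. With pooled values there is no replicate spread, so no p-value was computed. The interval cannot be checked against replicates, and depth cannot be read from FPKM. For 4710 genes with at least 10 FPKM in all conditions the interval reached a median of 25.2% to 25.7% of the FPKM to either side, and for the 10 genes 22.4% to 39.0%.

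The 10 genes and the lists were chosen with earlier results of these data known. Named were the 10 genes, called genes of the lists, the nearest profiles for genes with a log2 span of at least 1, and neighbours on chromosome 16, which were named after their values were seen. Nearest profiles used genes with at least 5 FPKM in some condition. Alternatives were pseudocounts of 1 and 0.01 FPKM, no minimum or 5 FPKM, a fold threshold of 1.5, the fold alone, and median centring. Python 3.11.15, numpy 2.4.6, pandas 2.3.3 and matplotlib 3.10.9 were used.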

Additional observations from a re-analysis of the deposited data

How the results depend on the processing

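All 16 called values among the 110 values of the 10 genes were called in the same direction under each of the 7 alternatives. Changing the minimum could not remove a call, because all 10 genes had more than 10 FPKM in all conditions. A fold threshold of 1.5 and the fold alone could not remove one either, because they only loosen the rule. The pseudocount of 0.01 FPKM could not, because a smaller pseudocount enlarges each log2 difference. Only the pseudocount of 1 FPKM and the centring could have removed a call. With a fold threshold of 1.5, 7 further values were called. The number of the 10 genes called became 5 in treated against untreated Irf1-/- BMDCs, where Ifngr1 and Cish were added to 3. It became 4 in Irf3/7-/- BMDCs, where Ifnar2 and Il10rb were added to 2. At this threshold 23.8% and 24.9% of all genes were called in these comparisons. The number became 1 between treated Irf1-/- and Irf3/7-/- BMDCs (Socs2), against 13.7% of all genes. It became 2 between untreated Tmem173-/- and wild-type BMDCs (Il10rb added to Socs1), against 14.5%. Between untreated Irf1-/- and wild-type BMDCs it became 1 (Socs1), against 6.41%. Lowering the threshold admits these values by construction, since their intervals were separate. The largest shift from centring was -0.0328 on the log2 scale, in treated Tmem173-/- BMDCs. No paired analysis was possible because the deposited columns hold pooled values and carry no replicate numbers, and for the same reason no replicate could be left out.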
